A study of Mus musculus with 8 samples.

Results

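The genes described here build or maintain cilia. They are the genes whose symbol begins with *Cfap*, *Dnah*, *Dnaic*, *Dnali*, *Ift*, *Bbs*, *Nphp* or *Rsph* followed by a number and that had 10 or more counts in at least 4 of the 8 libraries. Of 25239 gene symbols in the count files, 82 had such a symbol and 55 passed the count rule, and these 55 are the members. The family was chosen on measured values, because *Cfap52*, *Dnah11* and *Nphp4* had been seen to rise in the mutant. Their values are therefore given as a description without a test, and counts of members are also given without these 3 genes.

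RNA-Seq was conducted on E14.5 mouse ovaries of a C57BL/6 background, to ask what the loss of the BMP receptor BMPR1A from germ cells does to the fetal ovary. Control embryos were *Bmpr1a* fl/fl and gave 4 libraries. The mutants, called *Bmpr1a*-cKO, carried in addition *Oct4*-Cre Cre/WT and also gave 4. The Cre is tamoxifen-inducible and under the control of *Oct4*, so deletion was aimed at germ cells, and ovarian somatic cells keep the receptor. The dams of both genotypes were injected at 9.5 dpc, again at 10.5 dpc and a last time at 11.5 dpc with 4-hydroxytamoxifen (1 mg) plus progesterone (0.5 mg), so the controls had the drug but no Cre. Each library was a pool of 2 ovary pairs, from 8 embryos per genotype across 6 litters, and the litter of each library is not named. Whole ovaries were sequenced, so fewer cells of a type and less RNA per cell cannot be told apart in any value below.

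A cilium is built on a basal body and carries an axoneme of doublet microtubules. In motile cilia and sperm flagella, outer and inner dynein arms power the beat, radial spokes and a central pair apparatus regulate it, and microtubule inner proteins brace the doublets. Nearly every cell type can also form an immotile primary cilium, a signalling antenna without dynein arms. Both kinds rely on intraflagellar transport (IFT), in which the IFT-B and IFT-A complexes carry cargo to the tip and back, on the BBSome, which moves membrane proteins, and on nephrocystins (NPHP), which lie at the transition zone gate and in the inversin compartment near the ciliary base. The members were grouped by these known roles into 26 genes of the motile axoneme, 25 genes of transport and the transition zone (14 IFT, 8 BBS and 3 NPHP), and 4 other *Cfap* genes.

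Control libraries held 10622684 to 15365052 counts, and the mutant libraries 8562961 to 14887102. *Bmpr1a* itself had 199, 237, 220 and 216 CPM (counts scaled by TMM to a common library size) in control and 185, 195, 190 and 209 CPM in *Bmpr1a*-cKO libraries, ranges that overlapped (Log2FC -0.16, FDR = 0.0692). Germ cell markers summed to 529.7 to 722.7 CPM in control and 612.2 to 988.9 CPM in *Bmpr1a*-cKO ovaries, and of these *Ddx4* had a Log2FC of 0.11 (FDR = 0.561). Of 6 germ cell markers, 3 rose and 1 fell as differentially expressed genes (DEGs), which here means an FDR below 0.05 with an absolute Log2FC above 0.5. Over all genes tested, 6.11% rose and 4.06% fell as DEGs. All 7 pregranulosa and supporting cell markers were lower at an FDR below 0.05, where 12.5% of all genes tested were, and 1 was a DEG. Their sums were 1195 to 1285 CPM in control against 909.5 to 1134 CPM in *Bmpr1a*-cKO libraries. Macrophage markers summed to 20.23 to 24.35 CPM in control and 26.47 to 32.14 CPM in *Bmpr1a*-cKO libraries, mesonephric markers to 129.8 to 160.4 and 101.1 to 121.3 CPM, Sertoli cell markers to 14.05 to 16.83 and 11.33 to 12.87 CPM, endothelial markers to 228.9 to 268.7 and 211.7 to 246.8 CPM, and erythroid markers to 23.7 to 44.65 and 20.94 to 42.33 CPM. The part of these differences in the results below was not tested.

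The motile axoneme and the transport machinery stood at different levels in the fetal ovary. All 25 transport and transition zone genes passed the count rule, whereas 26 of 53 motile axoneme symbols did. Per length, as RPKM (CPM per kilobase of exon), the median control level was 4.46 for transport and transition zone genes, 8.39 for the 4 other *Cfap* genes and 0.436 for motile axoneme genes. A control mean below 1 RPKM was found for 17 of the 26 motile members and for 0 of the other 29. The highest levels were those of *Ift52* and *Ift74*, both of the IFT-B core, with 15.7 ± 0.539 and 14.3 ± 0.826 RPKM in control ovaries (SD, n = 4), and of *Ift20*, which also serves at the Golgi, with 13.1 ± 1.97 RPKM. These 3 levels ran down in that order but *Ift74* and *Ift20* did not differ beyond their spread.

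The 27 symbols below the count rule were all motile axoneme genes. Of these, *Rsph14* and *Cfap97d1* were at 0 in every library and 16 had 5 or fewer counts in every library. The highest count in any library was 28, for the inner-arm dynein heavy chain *Dnah12* in control 4. Just outside the rule lay *Dnah6*, with 7, 8, 10 and 19 counts in control and 4, 8, 4 and 8 in *Bmpr1a*-cKO libraries, and *Cfap45*, with 8, 6, 6 and 12 against 5, 7, 4 and 10. Just inside it lay *Cfap52*, which encodes a protein within the doublet microtubules. It passed through the mutant libraries alone, with 2, 3, 9 and 7 counts in the control libraries, so its presence among the members already required a difference. Of the members, 53 passed in at least 3 libraries of each genotype and 48 in all 8.

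The 3 genes that had drawn attention to the family rose from low levels. *Cfap52* was at 0.164, 0.266, 0.843 and 0.442 CPM in control and 4.29, 5.43, 4.501 and 7.16 CPM in *Bmpr1a*-cKO libraries (Log2FC 3.66). *Dnah11*, an outer-arm dynein heavy chain, was at 1.73, 0.797, 0.375 and 0.820 CPM in control and 4.89, 3.35, 6.49 and 3.75 CPM in *Bmpr1a*-cKO libraries (Log2FC 2.25). *Nphp4*, a transition zone scaffold protein that also occurs in primary cilia, was at 10.6, 8.86, 8.34 and 8.39 CPM in control and 25.6, 22.01, 29.2 and 22.5 CPM in *Bmpr1a*-cKO libraries (Log2FC 1.45). In all 3 the lowest mutant library lay above the highest control library. Even after the rise, *Cfap52* stood at a mean of 2.31 RPKM and *Dnah11* at 0.320 RPKM, below the 4.11 RPKM of *Nphp4*. No exon of *Nphp4* overlaps another gene in the annotation. With single libraries left out, the fitted Log2FC of *Cfap52* ran from 3.41 (without control 1) to 4.11 (without control 3) and that of *Dnah11* from 2.02 (without control 3) to 2.71 (without control 1).

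*Dnah17*, the outer-arm dynein heavy chain of sperm flagella, rose alongside *Dnah11* and was not among the genes that prompted the choice. It was at 1.32, 0.797, 1.03 and 1.01 CPM in control and 6.80, 4.02, 5.34 and 5.60 CPM in *Bmpr1a*-cKO libraries, and no mutant library came near a control library. Its Log2FC was 2.36 ± 0.228 (SE, FDR = 2.9e-06), a 5.12-fold higher level, and leaving out any library kept it between 2.25 and 2.49. *Dnah17* lies at chr11:118021723-118130634 on the minus strand of mm10, *Cfap52* at chr11:67924806-67965651 (minus), *Dnah11* at chr12:117877982-118199043 (minus) and *Nphp4* at chr4:152476706-152563183 (plus). Exons of *Dnah17*, *Dnah11* and *Cfap52* overlap genes on the opposite strand by 349, 642 and 194 bases. The libraries were strand-specific, but how the counting used strand is not given in the sources used here. The tested partners did not pass the test, with a Log2FC of -0.09 for *Pgs1* (FDR = 0.424, opposite *Dnah17*) and 0.03 for *Cdca7l* (opposite *Dnah11*).

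CG dinucleotides were counted at the start sites of the 3 genes with the largest rise, of which *Cfap52* and *Dnah11* were used in the choice. The 250 bases before the RefSeq start site (GRCm38.p6) are shown 5′ to 3′ on the strand of the gene, with each CG in capitals, to show where they lie. They span chr11:67965643-67965892 (minus) for *Cfap52*, chr12:118199044-118199293 (minus) for *Dnah11* and chr11:118129220-118129469 (minus) for *Dnah17*, whose GENCODE gene extends further upstream:
Cfap52: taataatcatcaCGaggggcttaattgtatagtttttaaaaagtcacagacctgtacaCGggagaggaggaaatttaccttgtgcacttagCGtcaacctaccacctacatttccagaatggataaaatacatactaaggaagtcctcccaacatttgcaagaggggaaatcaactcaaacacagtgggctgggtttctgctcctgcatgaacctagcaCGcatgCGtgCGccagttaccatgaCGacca
Dnah11: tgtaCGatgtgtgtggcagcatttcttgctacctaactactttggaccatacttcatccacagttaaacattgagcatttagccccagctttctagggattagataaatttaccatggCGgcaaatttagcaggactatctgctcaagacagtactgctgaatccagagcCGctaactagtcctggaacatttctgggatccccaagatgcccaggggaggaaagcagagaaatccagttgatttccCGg
Dnah17: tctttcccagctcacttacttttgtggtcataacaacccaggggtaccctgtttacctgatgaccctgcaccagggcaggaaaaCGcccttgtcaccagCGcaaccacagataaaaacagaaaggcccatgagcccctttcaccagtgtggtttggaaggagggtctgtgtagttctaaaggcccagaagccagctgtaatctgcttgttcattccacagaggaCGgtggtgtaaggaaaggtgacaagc
These stretches hold 7, 4 and 3 CG dinucleotides. Over the full RefSeq windows of 300 bases, which add 50 bases after the start site, the counts were 8, 7 and 4, beside a median of 16 over the 52 windows of the 47 members with a RefSeq window and a median of 7 over all 32851 windows. The counts of these 3 genes lay under the member median, while that of *Dnah17* alone lay under the median of all windows. *Cfap70* and *Dnah2*, which were not DEGs, held 5 each. The windows of *Nphp4*, which has 3 annotated start sites, held 7, 27 and 18. The other higher DEGs with a window held 22 (*Cfap77*) and 12 (*Rsph9*), so the windows of higher DEGs ran from 4 to 27. Lower DEGs held 27 in *Cfap61*, 16 in *Dnah8*, 10 in *Dnah9* and 40 in *Cfap410*, a range that overlapped, and *Rsph1* and *Cfap54* had no window. Transport and transition zone windows had a median of 21 and motile axoneme windows a median of 12. Methylation was not measured in these libraries.

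In the whole family, 7 members were DEGs with higher and 5 with lower levels in *Bmpr1a*-cKO ovaries, where 6.11% of the 14249 genes tested were higher and 4.06% lower. Without the 3 genes that prompted the choice, 4 rose and 5 fell of 52 members (17.3%), against 10.2% of all genes in either direction. At an FDR below 0.05 with any fold, 8 members were higher and 9 lower of 55, where 17.3% of all genes were higher and 12.5% lower. The 4 libraries of one genotype lay wholly above those of the other for 22 members, and for 19 of the 52 without the 3 genes, where this held for 27.9% of all genes tested. The median Log2FC of the members was -0.07, against -0.0042 over all genes tested.

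**Figure D1:**
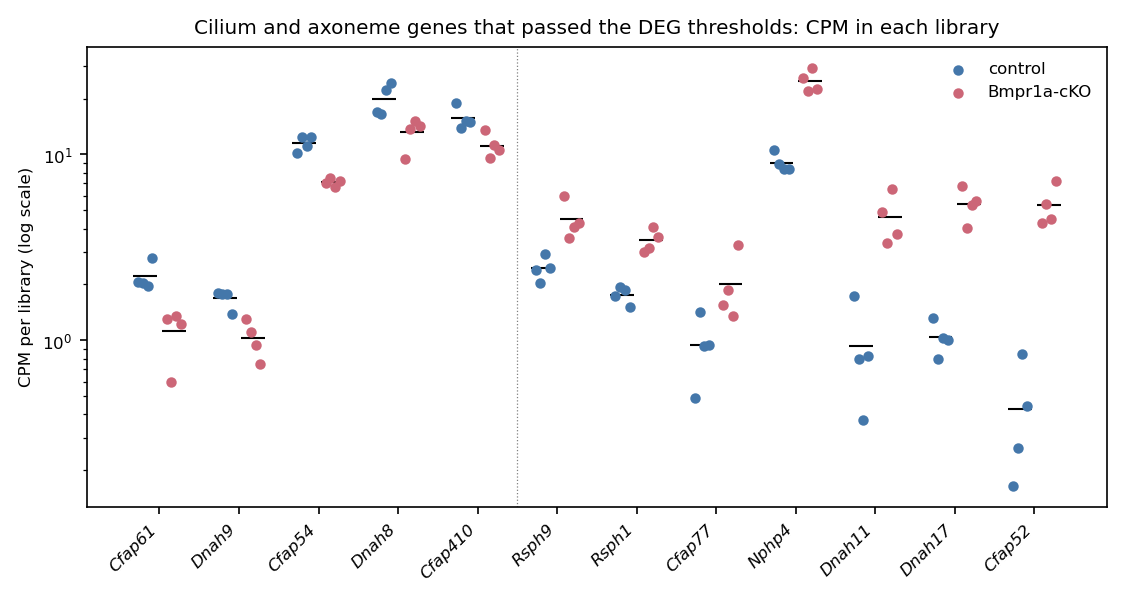
CPM of the 12 member DEGs in each library (log axis, 1 point per library, bars at the mean of 4 libraries), with genes lower in *Bmpr1a*-cKO left of the dotted line and genes higher right of it. *Cfap77* is the gene whose control and mutant libraries overlap, and *Cfap52* spans the widest gap, from control values of 0.164 to 0.843 CPM to mutant values of 4.29 to 7.16 CPM.

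The DEGs fell mainly on the motile axoneme. Of its 26 members, 6 rose and 4 fell, and without *Cfap52* and *Dnah11* 4 rose and 4 fell of 24 (33.3%). With any fold at an FDR below 0.05, 6 of the 26 were higher, *Cfap52* and *Dnah11* among them, and 5 lower. Of all genes tested, 17.3% were higher and 12.5% lower at that FDR. Of 25 transport and transition zone members, *Nphp4* was the DEG, and without it 0 of 24 were DEGs. At an FDR below 0.05 with any fold, in the same edgeR fit, 3 of those 24 were lower and 0 higher. At an unadjusted p below 0.05 they were 4 lower and 4 higher, and DESeq2 and limma-voom also gave 0 DEGs among the 24. The median absolute Log2FC, without the 3 genes, was 0.324 in the motile axoneme and 0.116 in transport and transition zone genes, beside 0.171 over all genes tested. The difference between the classes was not tested, and the low motile levels came with a wider error, with a median SE of 0.209 against 0.0991.

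**Figure D2:**
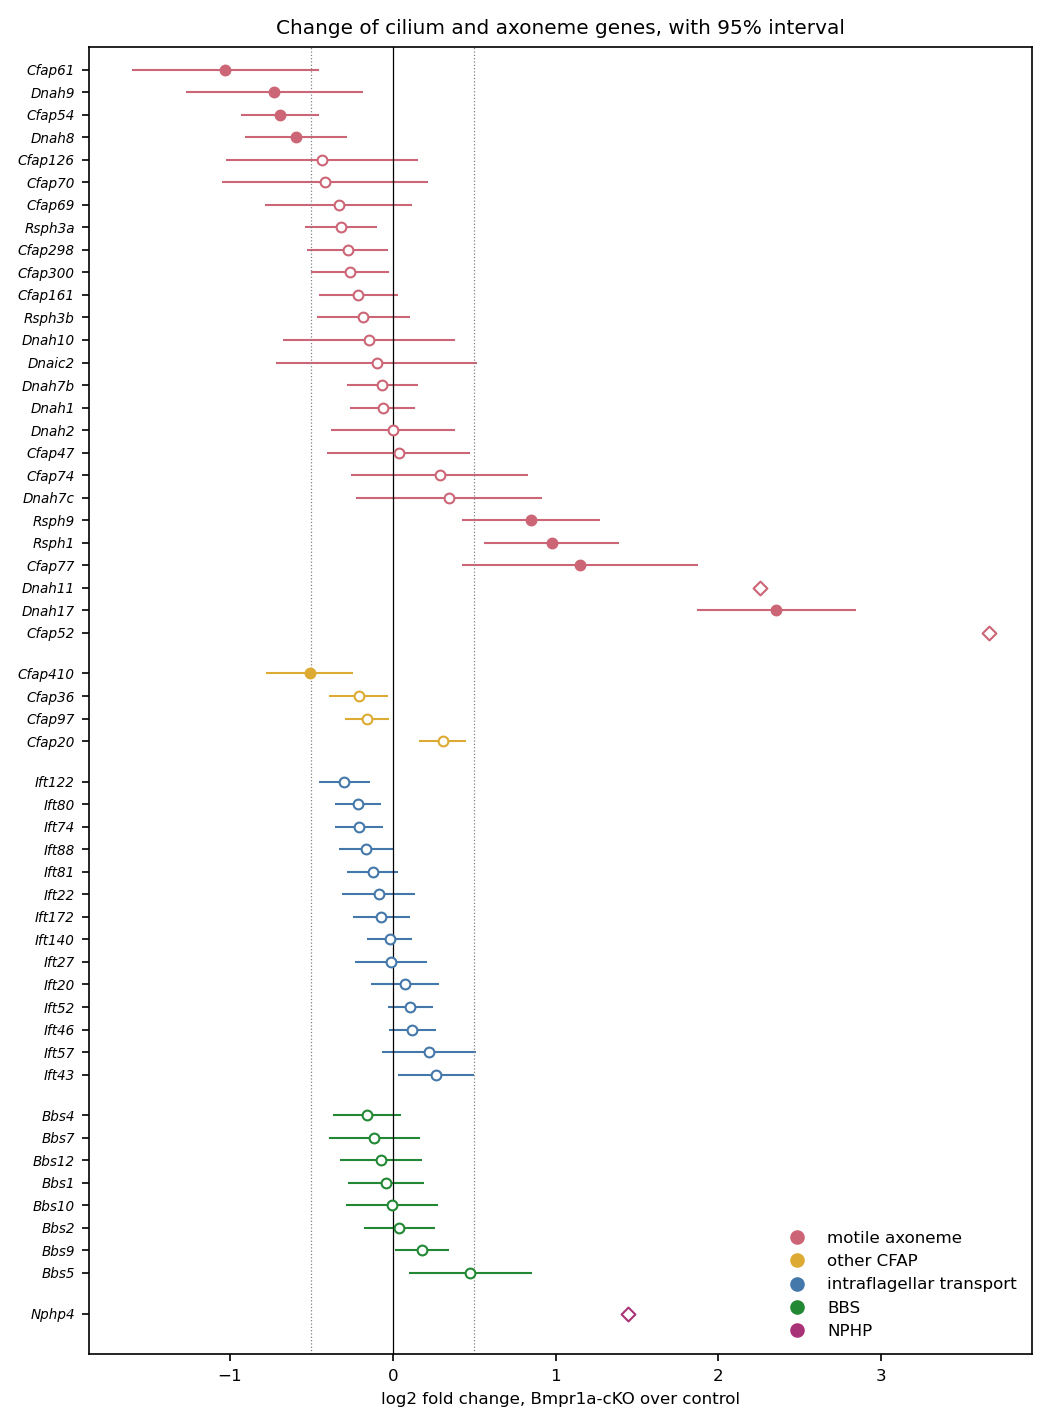
Log2FC of 53 members with the 95% interval of the fit, by class, with DEGs as filled circles, other members as open circles, and the 3 genes that prompted the choice as open diamonds without an interval. Motile axoneme genes spread from -1.03 to 3.66, while transport and transition zone genes other than *Nphp4* lie between -0.30 and 0.48, and dotted lines mark an absolute Log2FC of 0.5.

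Among the motors of the axoneme, the outer dynein arm changed in both directions. Of its 5 heavy chains 4 passed the count rule, all 4 were DEGs (1 higher and 2 lower of 3 without *Dnah11*, where 10.2% of all genes tested were DEGs), and *Dnah5* stayed at 2 to 8 counts per library. Against the rise of *Dnah11* and *Dnah17*, *Dnah8*, a heavy chain of sperm flagella, fell from 16.9, 16.6, 22.2 and 24.2 CPM in control to 9.42, 13.8, 15.2 and 14.2 CPM in *Bmpr1a*-cKO libraries. The highest mutant library of *Dnah8* lay just under the lowest control library (Log2FC -0.60 ± 0.147 SE, FDR = 0.0067). It dropped under the fold threshold without control 4 (-0.49, FDR = 0.0309) or without *Bmpr1a*-cKO 1 (-0.49, FDR = 0.00934).

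*Dnah9*, an outer-arm heavy chain of respiratory cilia, was at 1.81, 1.77, 1.78 and 1.39 CPM in control and 1.31, 1.12, 0.942 and 0.751 CPM in *Bmpr1a*-cKO libraries. The ranges did not overlap but stood close together (Log2FC -0.73 ± 0.256 SE, FDR = 0.0433). Its call was the weakest of the family: the FDR was 0.101, 0.0752 and 0.0787 without control 1, 2 or 3, 0.0754, 0.0936 and 0.15 without *Bmpr1a*-cKO 2, 3 or 4, and 0.144 in DESeq2. With libraries scaled to the germ cell marker *Ddx4*, the FDR of *Dnah9* was 0.24. Summed over the 4 outer-arm heavy chains, the level was 21.7, 19.9, 25.4 and 27.4 CPM in control and 22.4, 22.2, 28.0 and 24.3 CPM in *Bmpr1a*-cKO libraries. These ranges overlapped, but the sum holds *Dnah11*, which was used in the choice, so it is a description only. Exons of *Dnah8* and *Dnah9* overlap genes on the opposite strand by 650 and 495 bases.

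None of the 5 inner-arm heavy chains that passed the count rule passed the test in edgeR, at FDRs of 0.365 to 0.999, and at an unadjusted p below 0.05 the count was 0 in edgeR, DESeq2 and limma-voom alike. *Dnah7b*, at 24.7 ± 2.48 CPM in control ovaries and 23.9 ± 3.10 CPM in the mutants (SD, n = 4), was the most highly counted of them (Log2FC -0.06, 95% interval -0.28 to 0.15). *Dnah1* had an interval of -0.26 to 0.14. For *Dnah7c*, at 1.46 and 1.90 CPM, the interval of -0.23 to 0.92 left a change of 0.5 within reach. *Dnah7b* shares 17.1% of its 100-base windows with *Dnah7c*, so a part of their reads may not be assignable to either gene alone.

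Radial spoke genes divided. *Rsph1*, a spoke head protein, was at 1.73, 1.95, 1.87 and 1.52 CPM in control and 2.98, 3.12, 4.08 and 3.62 CPM in *Bmpr1a*-cKO libraries, without overlap (Log2FC 0.98 ± 0.194 SE, FDR = 0.00151). *Rsph9*, also of the spoke head, was at 2.38, 2.04, 2.90 and 2.46 CPM in control and 5.96, 3.57, 4.08 and 4.30 CPM in *Bmpr1a*-cKO libraries, again without overlap (Log2FC 0.85 ± 0.199 SE, FDR = 0.00485). With libraries scaled to *Ddx4*, *Rsph1* and *Rsph9* both lost their call (FDR = 0.105 and 0.118). *Rsph3a*, a spoke stalk gene that is named because it is the motile gene that passed the FDR but not the fold threshold, was at 15.7, 15.1, 17.7 and 18.6 CPM in control and 14.4, 14.3, 11.5 and 13.7 CPM in *Bmpr1a*-cKO libraries (Log2FC -0.32, FDR = 0.0316). Its value is uncertain, since 60.6% of its 100-base windows also occur in *Rsph3b*, which had a Log2FC of -0.18 (FDR = 0.35). The head genes *Rsph4a* and *Rsph6a* were under the count rule, at 0 to 4 counts per library.

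Among proteins inside the doublets, *Cfap77* was at 0.493, 1.42, 0.937 and 0.947 CPM in control and 1.55, 1.86, 1.36 and 3.28 CPM in *Bmpr1a*-cKO libraries. Its lowest mutant library lay under its highest control library, and *Bmpr1a*-cKO 4 stood above the rest (Log2FC 1.15 ± 0.341 SE, FDR = 0.0192). The call was lost without *Bmpr1a*-cKO 4 (Log2FC 0.76, FDR = 0.115), without control 1 (FDR = 0.0632) and without control 4 (FDR = 0.0515). *Cfap126* and *Cfap161*, also of the doublet lumen, had a Log2FC of -0.43 (FDR = 0.267) and -0.21 (FDR = 0.181).

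The clearest fall was that of *Cfap54*, which encodes a central apparatus protein. It was at 10.2, 12.4, 11.2 and 12.4 CPM in control and 7.03, 7.51, 6.70 and 7.23 CPM in *Bmpr1a*-cKO libraries. Both genotypes were tight and far apart (Log2FC -0.69 ± 0.114 SE, FDR = 0.000332). The other 3 central apparatus members, *Cfap47*, *Cfap69* and *Cfap74*, had FDRs of 0.266 to 0.917.

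*Cfap61*, a protein of the calmodulin- and spoke-associated complex at the spoke base, fell from 2.06, 2.04, 1.97 and 2.78 CPM in control to 1.31, 0.595, 1.36 and 1.23 CPM in *Bmpr1a*-cKO libraries. No library overlapped (Log2FC -1.03 ± 0.269 SE, FDR = 0.00949). Its exons overlap *Crnkl1* on the opposite strand by 57 bases, and *Crnkl1* had a Log2FC of 0.24 (FDR = 0.0253), the opposite direction.

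The motile genes with the highest level per length, *Cfap298* and *Cfap300*, which act in dynein arm assembly, were not DEGs. *Cfap298* was at 10.4, 9.39, 12.6 and 10.3 CPM in control and 8.58, 8.70, 9.11 and 8.73 CPM in *Bmpr1a*-cKO libraries (Log2FC -0.28, 95% interval -0.53 to -0.03, FDR = 0.0863). *Cfap300* was at 9.21, 9.92, 11.1 and 10.4 CPM in control and 8.82, 8.03, 9.11 and 8.05 CPM in *Bmpr1a*-cKO libraries (Log2FC -0.26, FDR = 0.0901). In both, each mutant library lay under each control library, though for neither did edgeR pass the threshold. Of the 16 motile members that were not DEGs, 9 had a 95% interval that reached beyond 0.5 in either direction, so a change of that size is not excluded for them.

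The motile DEGs were mostly genes at trace levels. Of the 10, 8 had a control mean below 1 RPKM, and the exceptions were *Rsph1* and *Rsph9*, at 1.29 and 1.53 RPKM. Together the 6 that rose, *Cfap52* and *Dnah11* included, went from 7.56 to 25.3 CPM and the 4 that fell from 35.4 to 22.4 CPM. The genes were grouped by the direction of their change, so these shifts are a description only. Over all 26 motile members the sum was 153.6 to 173.9 CPM in control and 152.5 to 164.5 CPM in *Bmpr1a*-cKO libraries, and these ranges overlapped. Without *Cfap52* and *Dnah11* it was 152.6 to 172.6 CPM (161.5 ± 8.92, SD, n = 4) against 141.6 to 155.4 CPM (146.1 ± 6.28), also with overlap. With 10 counts demanded in all 8 libraries, 2 motile genes rose (*Rsph1*, *Rsph9*) and 2 fell (*Cfap54*, *Dnah8*).

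**Figure D3:**
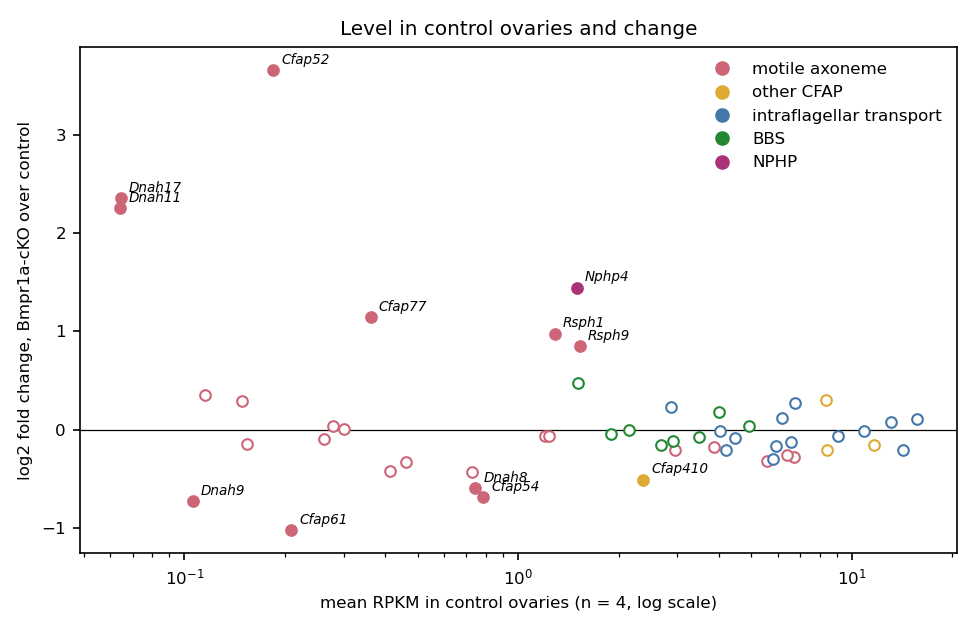
Mean RPKM of 53 members in control ovaries (log axis, n = 4) against its Log2FC, coloured by class, with DEGs filled and named. The members above 2 in Log2FC all lie below 0.2 RPKM in control, and IFT genes lie between 2.86 and 15.7 RPKM with changes near 0.

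Transport genes differed little between the genotypes. Apart from *Nphp4*, 21 of 24 had a 95% interval of the Log2FC within 0.5 of 0, and the exceptions were *Ift43*, *Ift57* and *Bbs5*. The sum over all 25 was 665.7 to 682.0 CPM in control and 664.3 to 674.6 CPM in *Bmpr1a*-cKO libraries. Without *Nphp4*, it was 656.8 to 673.7 CPM (664.5 ± 8.93, SD, n = 4) against 642.3 to 647.3 CPM (644.4 ± 2.39), lower in the mutants and without overlap. Libraries did not overlap for 5 of these 24 genes (20.8%), against 11 of 24 motile genes (45.8%) and 27.9% of all genes tested. Whether these shares differ was not tested.

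Of the 14 IFT genes, 3 fell at an FDR below 0.05 with folds under the threshold, where 12.5% of all genes tested fell, and they are named after their values were seen. *Ift122*, of the retrograde IFT-A complex, was at 56.7, 55.1, 64.1 and 63.8 CPM in control and 46.4, 48.4, 53.4 and 47.2 CPM in *Bmpr1a*-cKO libraries, without overlap (Log2FC -0.30 ± 0.0734 SE, FDR = 0.00666). *Ift80*, of peripheral IFT-B, had a Log2FC of -0.21 (FDR = 0.0232) and *Ift74*, of the IFT-B core, one of -0.21 (FDR = 0.0352), and neither gene's libraries overlapped. *Ift52*, the IFT gene with the highest level, was at 43.0, 46.1, 42.7 and 44.0 CPM in control and 49.0, 45.1, 49.2 and 46.5 CPM in *Bmpr1a*-cKO libraries. These ranges overlapped (Log2FC 0.11, 95% interval -0.03 to 0.25, FDR = 0.229). *Ift20* had a Log2FC of 0.08 (interval -0.14 to 0.29, FDR = 0.609), which turned to -0.01 when libraries were scaled to *Ddx4*.

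None of the 8 BBS genes passed the quasi-likelihood test in edgeR, where 2 had an unadjusted p below 0.05, while at an FDR below 0.05 with any fold limma-voom called 1 and DESeq2 0. *Bbs2* and *Bbs9*, BBSome subunits with the highest levels per length, had a Log2FC of 0.04 (95% interval -0.18 to 0.26, FDR = 0.808) and 0.18 (interval 0.01 to 0.34, FDR = 0.0982), and the sign of *Bbs2* turned with scaling by library size or *Ddx4*. *Bbs9* was at 26.5, 24.3, 26.1 and 22.9 CPM in control and 28.0, 27.4, 30.4 and 27.2 CPM in *Bmpr1a*-cKO libraries, without overlap. *Bbs5*, named after its values were seen, came nearest to a call, at 3.12, 4.61, 2.997 and 4.10 CPM against 4.77, 4.46, 5.76 and 5.73 CPM (Log2FC 0.48, FDR = 0.0542). It crossed both thresholds without control 2 (0.58, FDR = 0.0286) or without *Bmpr1a*-cKO 1 (0.51, FDR = 0.0472).

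Of the 4 other *Cfap* genes, *Cfap410*, which acts at the base of cilia, was the DEG. It was at 18.9, 13.8, 15.2 and 15.0 CPM in control and 13.5, 9.52, 11.2 and 10.5 CPM in *Bmpr1a*-cKO libraries, ranges that all but touched (Log2FC -0.51 ± 0.126 SE, FDR = 0.00661). It sat at the edge of the fold threshold and dropped under it without control 1 (-0.41, FDR = 0.0271), without *Bmpr1a*-cKO 2 (-0.44, FDR = 0.0338) or without *Bmpr1a*-cKO 4 (-0.49, FDR = 0.0214). With libraries scaled to *Ddx4*, its FDR was 0.236. *Cfap20*, a protein of doublet microtubules, moved the other way, with 35.4, 36.0, 40.3 and 37.2 CPM in control and 48.1, 46.0, 44.8 and 45.2 CPM in *Bmpr1a*-cKO libraries. Each mutant library was higher than each control library, with a change under the fold threshold (Log2FC 0.31 ± 0.0669 SE, FDR = 0.00297). *Cfap97*, the most abundant per length of the 4, had a Log2FC of -0.16 (FDR = 0.0671).

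Ciliary genes with other names were counted in the same fit. Of 195 written down by role, 177 were in the files and 133 were tested. Of these, 4 rose and 3 fell as DEGs (3 to 5 each with a library omitted), beside 6.11% and 4.06% of all genes tested. At an FDR below 0.05 with any fold, 19 were higher and 12 lower, where 17.3% and 12.5% of all genes tested were, so neither direction exceeded the share over all genes. *Hydin*, a giant central apparatus protein, rose like *Dnah17*, from 0.904, 0.708, 0.843 and 0.568 CPM in control to 2.504, 4.17, 2.30 and 2.80 CPM in *Bmpr1a*-cKO libraries. It did so without overlap and from trace levels, with 10 counts in 1 control library (Log2FC 1.998 ± 0.274 SE). *Efhc2*, a doublet microtubule protein, rose (Log2FC 1.02, FDR = 0.00187), and *Stk33*, a kinase needed for sperm flagella, fell from 5.02, 3.90, 5.34 and 5.24 CPM to 1.19, 1.12, 1.57 and 2.73 CPM (Log2FC -1.51, FDR = 0.000344).

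Among genes at the ciliary base, *Iqcb1*, a transition zone protein, fell from 107.1, 98.8, 122.0 and 113.0 CPM to 48.1, 59.6, 67.5 and 76.4 CPM (Log2FC -0.80 ± 0.108 SE). Control and mutant libraries were well apart. *Pde6d*, which shuttles lipidated proteins to cilia, also fell (Log2FC -0.58 ± 0.0852 SE, FDR = 0.000135). *Tmem107*, of the transition zone, rose with overlapping libraries (Log2FC 0.53, FDR = 0.0164) and dropped under a threshold without control 2 (0.44), *Bmpr1a*-cKO 3 (0.44) or *Bmpr1a*-cKO 4 (0.50). With libraries scaled to *Ddx4*, its Log2FC was 0.40 (FDR = 0.609). Counted by list at an FDR below 0.05 with any fold, where 17.3% of all genes tested were higher and 12.5% lower, 5 of 12 dynein arm assembly and docking genes were higher and 0 lower (6 and 1 at an unadjusted p below 0.05), and the 5 include *Ruvbl1* and *Ruvbl2*, chaperone ATPases with many other uses. Of 23 basal body and centriole genes, 6 were higher and 5 lower, of 25 other IFT and IFT motor genes 0 and 2, of 16 other BBSome and trafficking genes 2 and 1, of 25 transition zone genes 1 and 3, and of 24 other motile cilium genes 3 and 1.

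Regulators of ciliary genes did not move together. *Foxj1*, the master regulator of motile cilia, was at 1.56, 1.06, 3.28 and 2.15 CPM in control and 1.79, 0.967, 2.41 and 1.37 CPM in *Bmpr1a*-cKO libraries, fully overlapping (Log2FC -0.35, 95% interval -1.07 to 0.37, FDR = 0.474). *Rfx2*, an X-box binding factor, had a Log2FC of 0.02 (FDR = 0.93), a sign that turned under 6 of 19 alternatives. *Rfx3*, also an X-box binding factor, was higher in each mutant library, at 43.2, 46.1, 41.2 and 45.9 CPM against 59.6, 55.5, 54.4 and 54.6 CPM (Log2FC 0.34 ± 0.066 SE, FDR = 0.0012), under the fold threshold. *Glis3*, a zinc finger factor found in primary cilia, rose from 31.8, 31.6, 46.6 and 30.4 CPM to 70.6, 91.2, 92.0 and 88.0 CPM (Log2FC 1.29 ± 0.122 SE). Markers of motile ciliated epithelium were low. Of 8, *Foxj1* and *Tppp3* were abundant enough to test, at control means of 0.767 and 0.676 RPKM, and *Sntn* was at 0 in every library. The list summed to 3.631 to 6.181 CPM in control and 3.793 to 5.339 CPM in *Bmpr1a*-cKO libraries.

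**Figure D4:**
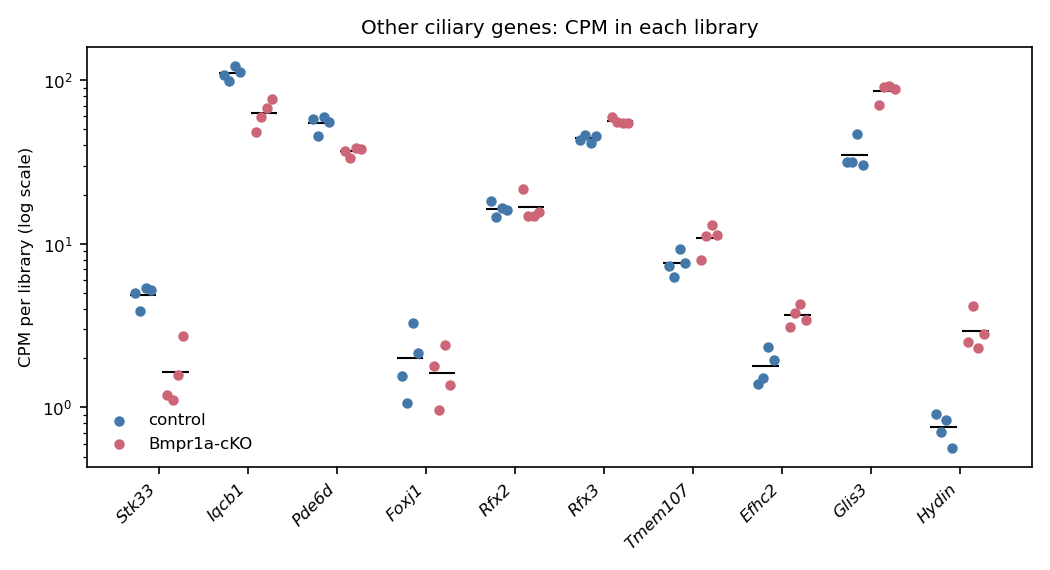
CPM of 7 other ciliary DEGs and of the factors *Foxj1*, *Rfx2* and *Rfx3* in each library (log axis, 1 point per library, bars at the mean of 4 libraries). *Hydin*, *Glis3* and *Stk33* separate by genotype, while *Foxj1* and *Rfx2* overlap.

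The X-box letters bound by RFX factors, GTTGCC followed after 0 to 4 bases by GGNAAC on either strand, were found in the windows of 3 members. These are shown with 20 bases on each side and the X-box letters in capitals, to show how the letters read in genes of the axoneme and of the transport machinery. The stretches are chr3:36613477-36613530 (minus) for *Bbs7*, chr16:90935004-90935057 and chr16:90934884-90934938 (minus) for *Cfap298*, which holds the letters at 2 places, and chr16:49699214-49699266 (plus) for *Ift57* (RefSeq, GRCm38.p6):
Bbs7: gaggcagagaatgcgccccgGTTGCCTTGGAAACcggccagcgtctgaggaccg
Cfap298, far: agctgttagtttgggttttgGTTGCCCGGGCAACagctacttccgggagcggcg
Cfap298, near: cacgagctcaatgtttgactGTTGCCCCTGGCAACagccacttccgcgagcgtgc
Ift57: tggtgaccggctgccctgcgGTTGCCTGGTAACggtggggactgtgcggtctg
The letters ended 107 bases before the start site in *Bbs7*, 174 and 54 bases before it in *Cfap298* and 47 bases before it in *Ift57*. They were in 5.77% of member windows and in 0.563% of all windows, a description without a test. None of the 3 genes was a DEG, with a Log2FC of -0.11 for *Bbs7* (FDR = 0.561), -0.28 for *Cfap298* and 0.22 for *Ift57* (FDR = 0.238). Of the 7 higher DEGs, *Rsph1* had no window, and the 8 windows of the other 6 held none of these letters, nor CACGTG (E-box letters, in 9.62% of member and 7.15% of all windows), nor GGCGGGAA on either strand (E2F letters, in 0 member windows and 2.19% of all windows). The absence says only that these letters are not in these windows.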

How the data were processed

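RNA-Seq was analysed from 4 control and 4 *Bmpr1a*-cKO libraries, grouped by genotype as labelled. The authors trimmed reads (Trimmomatic 0.39), mapped them to mm10 (STAR 2.5.2) and deposited raw counts per gene symbol. The libraries were strand-specific, while the annotation and the strand setting of the counting are not given in the sources used here. A deposited table of CPM-like signal, scaled with 1 factor per library, served as an alternative gene filter. Counts were tested with edgeR 4.0.16 in R 4.3.3 (filterByExpr, TMM, quasi-likelihood F test, two-sided, Benjamini-Hochberg over 14249 genes). Mean values carry the SD of 4 libraries, and p-values measure the spread between pools. Exon lengths came from GENCODE vM21, promoters from RefSeq.

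The members and gene lists were chosen with earlier results of these data known. Named genes were all member and other ciliary DEGs, the 2 members of each class with the highest RPKM, and *Foxj1*, *Rfx2* and *Rfx3*, while others were named after their values were seen. Some genes that this rule names are not reported here. The test was tested on simulated data. Alternatives were the likelihood ratio test, limma-voom (limma 3.58.1), DESeq2 1.42.0, other scalings, filters and call rules, an exon length offset, a replicate block and each library left out. For the ciliary genes outside the symbol rule, they were added after seeing the data. No sample was left out.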

Additional observations from a re-analysis of the deposited data

Results flagged for a closer look

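Among the named genes, 4 of 64 sets of 4 libraries had a library far from the other 3, and chance flags about 1 in 20 such sets. *Cfap61* was at 2.78 CPM in control 4, above the other control libraries at 1.97 to 2.06 CPM. *Dnah9* was at 1.39 CPM in control 4, below the others at 1.77 to 1.81 CPM. *Glis3* was at 46.6 CPM in control 3, above the others at 30.4 to 31.8 CPM and below each mutant library. *Rfx2* was at 21.6 CPM in *Bmpr1a*-cKO 1, above the others at 14.8 to 15.6 CPM.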

How the results depend on the processing

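Over 32 named genes and 19 alternatives, 565 of 608 values kept their direction and their side of the thresholds, 31 lost the call, 11 turned in sign and 1 (*Cfap52*, 4.11 without control 3) moved beyond its spread. *Dnah17*, *Cfap54*, *Cfap61*, *Glis3*, *Hydin*, *Stk33* and *Iqcb1* kept their call under all 19. Scaling to *Ddx4*, which moved the median Log2FC of all genes to -0.087, left 3 motile axoneme genes and 2 other ciliary genes higher, 0 other *Cfap* genes lower, and 380 genes higher and 345 lower over all. *Rsph1*, *Rsph9*, *Efhc2* and *Pde6d* lost their call under that scaling alone (FDR = 0.105, 0.118, 0.0684 and 0.0699), and the cause was not tested. With an FDR below 0.05 at any fold, 6 motile axoneme genes were higher and 5 lower. Of other *Cfap* genes 1 was higher and 1 lower, and of transport and transition zone genes 1 (*Nphp4*) was higher and 3 lower. At that FDR, 19 other ciliary genes were higher and 12 lower, and 2461 genes were higher and 1781 lower over all. With 10 counts in all 8 libraries, 2 motile genes rose and 2 fell, since fewer genes remain. Leaving out each library gave 5 to 6 motile genes higher and 3 lower, 0 to 1 other *Cfap* genes lower and 0 higher, 1 to 2 transport and transition zone genes higher and 0 lower, 3 to 5 other ciliary genes higher and 3 to 5 lower, and 762 to 1000 genes higher and 501 to 666 lower over all. Other ciliary genes that were DEGs without control 2 alone include *Ropn1l* (-0.83) and *Pih1d2* (-0.65), which fell, and *Tctex1d2* (0.55) and *Arl3* (0.52), which rose.

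The Log2FC of *Bbs2* was -0.0118 by library size alone, -0.0615 scaled to *Ddx4*, -0.0260 without control 4 and -0.0086 without *Bmpr1a*-cKO 3, and that of *Ift20* -0.0117 scaled to *Ddx4*. That of *Rfx2* was -0.0330 by library size alone, -0.0156 scaled to *Ddx4*, -0.0080 with the exon length offset, -0.0396 without control 2, -0.1119 without *Bmpr1a*-cKO 1 and -0.0050 in limma-voom. With each library left out in turn, *Bbs2* ran from -0.0260 to 0.1038 and *Rfx2* from -0.1119 to 0.0748. None of these values passed the test in any of those fits.

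No source states that libraries with the same replicate number share a litter. Their deviations correlated at 0.198, 0.161, 0.108 and -0.087, and control 3 correlated better with *Bmpr1a*-cKO 4 (0.182) than with its own number. With the replicate number as a block, 0 other *Cfap* genes were lower (*Cfap410* -0.4942, FDR = 0.00097) and *Dnah9* had an FDR of 0.051. The median SE of the Log2FC was 0.209 for motile genes and 0.0991 for transport and transition zone genes, and the part of depth in this was not tested.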
